A study of Mus musculus with 9 samples.

Results

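The genes described here are 51 genes of the actin cytoskeleton and of cell adhesion to the extracellular matrix: actin isoforms, the proteins that polymerise, bundle and contract actin filaments, integrins, proteins of the adhesion plaque, small GTPases and the transcription factor Srf. They were chosen by name. All 51 were found among the 38940 genes of the expression table. Of these, 44 had a mean of at least 1 FPKM (read density scaled by transcript length and library size) over the 9 libraries and were tested, and 7 were below that level. The gene listed as Diap1 is the formin now named Diaph1.

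The libraries came from mouse embryonic stem cells in which the Hippo pathway effectors Taz (gene Wwtr1) or Yap (gene Yap1) and Taz had been removed, with 3 libraries each of control, Taz knockout (KO) and Yap/Taz double KO. Control cells carry conditional alleles of both genes (Yapfl/fl/Tazfl/fl), although the design text calls them wildtype. The Taz KO (Yapfl/fl/Taz-/-; described as Yap f/f Taz ∆/∆) still has the conditional Yap alleles. The double KO is described as Yap ∆/∆ Taz ∆/∆, but its genotype field repeats that of the Taz KO. Cells were grown on plates coated with fibronectin, an integrin ligand, in N2B27 medium with 2i/Lif, which is 0.4 µM PD0325901 (a MEK inhibitor), 3 µM CHIR99021 (a GSK3 inhibitor) and 4 ng/ml Lif. Cre-ERT2 was introduced with a piggyBac transposon and activated with 500 nM 4-hydroxytamoxifen. The labels do not say whether control cells received the drug, whether a line was a single clone, or whether replicates were separate cultures. The p-values therefore rest on library-to-library variation alone, some of which may be technical.

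Actin filaments are built from actin monomers, pulled by nonmuscle myosin II and tied to the matrix at focal adhesions. There, integrins bind fibronectin or laminin outside the cell and talin inside it. The small GTPases of the RhoA, Rac1 and Cdc42 family switch filament assembly and contraction on and off. The monomer pool in turn controls Srf, which binds the CArG box of many actin and adhesion genes together with the MRTF cofactors Mkl1 and Mkl2. Yap and Taz respond to the tension in this system and act with TEAD factors, whose motif is GGAATG.

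The libraries held 19139802 to 23992020 reads. Yap1 was at 18.1, 18.1 and 19.1 FPKM in control, 18.6, 17.9 and 18.5 FPKM in Taz KO and 4.14, 3.98 and 4.62 FPKM in double KO libraries. Wwtr1 was at 11.1 to 12.7, 9.03 to 11.9 and 13.2 to 14.7 FPKM in the same order; a level summed over the gene cannot check the deletion of a part of it. All 10 stem cell markers listed had a mean of at least 1 FPKM, with sums of 5115 to 5497 FPKM in control, 4306 to 4632 in Taz KO and 2710 to 2944 in double KO libraries; Dppa5a alone averaged 2325 FPKM. Of 13 fibroblast markers 2 reached that mean, with sums of 23.2 to 40.7, 15.7 to 37.6 and 19.4 to 39 FPKM in the same order, mostly Vim; Dcn, Lum, Postn and Fap were at 0 in every library. Of 7 smooth muscle markers 2 reached it, and Myocd was at 0 throughout. Primitive endoderm had 1 of 6 and endothelium 2 of 5. Much of the fall in the stem cell sum was that of Dppa5a, with means of 3261 (control) and 1139 FPKM (double KO). Without Dppa5a the sums ran from 1592 to 2057 FPKM over the 9 libraries. Between the same groups Nanog, Sox2, Klf4, Tdgf1 and Fgf4 also fell at an adjusted p under 0.05 (limma), and Zfp42 rose. Pou5f1, Esrrb and Tfcp2l1 did not pass that level. With quantile normalization, only the falls of Dppa5a and Fgf4 and the rise of Zfp42 passed. What part these differences had in the results was not tested. The 3 libraries numbered 2, 1 in each group, stood apart from those numbered 1 and 3. The counts of calls are therefore also given without them, an alternative chosen after seeing the data, and with the replicate number as a block, since same-numbered libraries deviated together.

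The promoters of 41 of the 51 genes were matched in RefSeq (GRCm38.p6), as 48 windows from 250 bases before to 50 bases after a transcription start. The CArG box, searched on both strands, was in 6 of these 48 windows (12.5%) against 1.63% of all 32851 windows. The genes were Actg1, Cnn2, Myl6, Myl9, Srf and Vcl. GGAATG was in 12 windows (25%) against 14.7% of all, and the AP-1 motif TGANTCA in 6 (12.5%) against 7.81%. A match is a run of letters and not a measured binding site. The stretches upstream of the start of Actg1 (chr11:120348543-120348625, minus strand), Srf (chr17:46556176-46556292, minus), Cnn2 (chr10:79988480-79988583, plus) and Vcl (chr14:20929148-20929397, plus) are shown because each holds a CArG box, yet only Vcl among the 4 was called in the fit without a block or another scaling. They are printed 5′ to 3′ on the gene's strand with CArG boxes and GGAATG in capitals.
Actg1: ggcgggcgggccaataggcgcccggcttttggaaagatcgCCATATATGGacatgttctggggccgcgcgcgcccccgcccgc
Srf: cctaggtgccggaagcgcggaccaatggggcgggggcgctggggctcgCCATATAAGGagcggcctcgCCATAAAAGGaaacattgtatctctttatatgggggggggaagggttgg
Cnn2: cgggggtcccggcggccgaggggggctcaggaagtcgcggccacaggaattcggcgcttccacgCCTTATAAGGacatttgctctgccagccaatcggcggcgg
Vcl: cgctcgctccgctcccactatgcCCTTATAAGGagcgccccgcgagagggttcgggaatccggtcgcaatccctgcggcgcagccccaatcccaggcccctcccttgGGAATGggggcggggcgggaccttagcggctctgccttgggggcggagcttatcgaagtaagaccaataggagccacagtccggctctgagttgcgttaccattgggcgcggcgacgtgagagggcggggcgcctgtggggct
Srf carried 2 CArG boxes in this stretch, and Vcl a CArG box and a GGAATG.

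Between double KO and control, some of these genes were higher and others lower. They were 11 of the 44 tested (25%, against 25.3% of all genes) or, with the replicate block, 29 (65.9% against 52.4%). No change of the most abundant of the 44, Actb, was detected in either fit. The largest rise was of Rhob, a small GTPase known for fast changes in its transcript level, which was about 3-fold higher. Moesin (Msn), zyxin (Zyx), caldesmon (Cald1), integrin beta 1 (Itgb1) and vinculin (Vcl) also rose. Calponin 3 (Cnn3), filamin A (Flna), alpha-actinin 4 (Actn4), RhoA (Rhoa) and the myosin light chain Myl12b fell, each to between 65.6% and 82.8% of its control mean. Of these falls only that of Flna stayed called with quantile normalization, while all the rises named did. In bulk libraries, fewer cells of a type and less RNA per cell cannot be told apart.

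In this comparison of double KO with control, 11 of the 44 genes tested passed an adjusted p of 0.05 (limma on log2(FPKM + 0.5), Benjamini-Hochberg over 11674 genes), 6 higher and 5 lower. Here and in what follows, a gene passed or was called in the fit without the block unless another setting is named. The 11 are 25% of the genes tested, against 25.3% of all genes (12.4% higher and 12.9% lower), so the share was that of the background. The median log2 change of all 44 was -0.05, against -0.02 over all genes tested. With quantile normalization the split was 10 higher and 1 lower in place of 6 and 5, against 14% and 13.8% of all genes. Actg1, Itgb5, Rdx and Diap1 were then called higher (adjusted p = 0.0173, 0.00879, 0.037 and 0.0203). With the replicate block 29 were called (10 higher, 19 lower; 65.9% against 52.4% of all genes, of which 24.2% higher and 28.1% lower), and without the libraries numbered 2, 24 (54.5% against 41.9%). The count fell to 3 when control 1 was left out, to 4 or 6 when double KO 3 or double KO 1 was, and to 7 without control 3 or Taz KO 1. The groups did not overlap for 20 of the 44 (45.5%, against 45.6% of all genes), 7 higher and 13 lower in double KO (21.7% and 23.8% of all genes).

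Taz loss alone moved 1 of the 44 genes past the threshold, Itgb1, which rose (2.27%, against 1.28% of all genes, 0.72% higher and 0.565% lower). At an unadjusted p of 0.05, 5 of them passed, where 12.8% of all genes did. With the replicate block 6 were called, Itgb1, Vcl, Tagln2, Myh10 and Tpm4 higher and Cnn3 lower (13.6%, against 11.8% of all genes, 7.78% higher and 4.05% lower). Without the libraries numbered 2, Itgb1 and Vcl were called (against 3.62% of all genes). The groups did not overlap for 9 genes (20.5%, against 18.7%), 4 higher and 5 lower (10.9% and 7.84% of all genes). The median log2 change of all 44 genes was -0.04, against 0.01 over all genes.

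Between double KO and Taz KO, which differ in the labels by Yap, 6 of the 44 were called (13.6%, against 13.9% of all genes, 6.42% higher and 7.45% lower). Rhob, Cald1, Msn and Itgb5 were higher in double KO, and Cnn3 and Rhoa lower. With quantile normalization the split was 5 higher, Diap1 among them, and 0 lower, against 7.4% and 7.69% of all genes. With the block 18 were called (5 higher, 13 lower; 40.9% against 42.4% of all genes, 16.8% higher and 25.6% lower), and without the libraries numbered 2 also 18 (4 higher, 14 lower; 36.6% of all genes). The count fell to 3 without Taz KO 1, Taz KO 3, double KO 1 or double KO 3. Those added by the block included Myh10, Tpm4, Cnn2, Itga3, Pfn1 and Rac1, all lower (adjusted p = 0.0226, 0.0169, 0.0225, 0.00141, 0.00995 and 0.029). All of these except Myh10 were also called without the libraries numbered 2. The groups did not overlap for 10 genes (22.7%, against 30.6%), 4 higher and 6 lower (14.1% and 16.5% of all genes). The 3 comparisons share libraries, so their values are given side by side and are not independent.

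**Figure D1:**
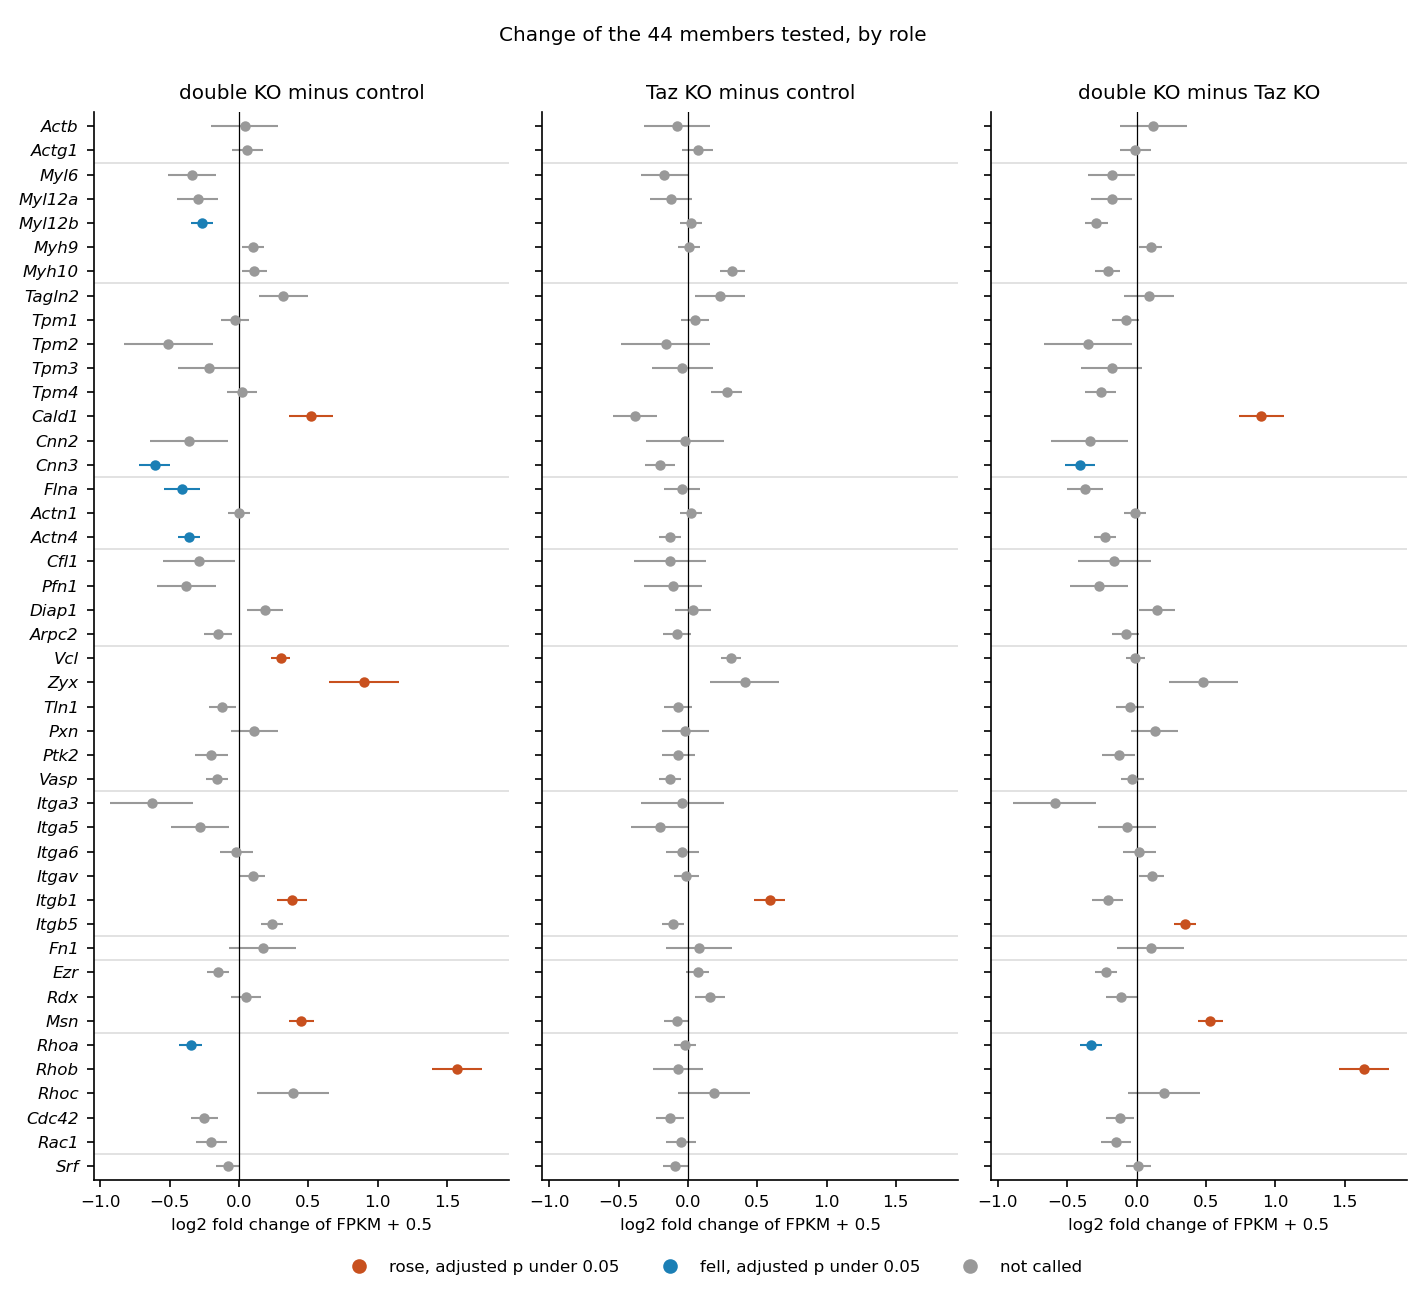
Log2 fold change of FPKM + 0.5 for the 44 genes tested, grouped by role, in the 3 comparisons; points are limma estimates, bars are ± 1 standard error, orange marks genes that rose and blue genes that fell at an adjusted p under 0.05. Rhob, at 1.57 and 1.64, lies farthest from 0 in both comparisons with double KO, and most other points lie close to 0; of the blue points, only Flna stayed called with quantile normalization.

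Among the actin isoforms, cytoplasmic beta-actin (Actb) was the most abundant of all 51 genes. It was at 719, 507 and 738 FPKM in control, 713, 421 and 758 FPKM in Taz KO and 712, 554 and 736 FPKM in double KO libraries. The library numbered 2 was the lowest in each group, and the 3 groups overlapped. The double KO differed from control by 0.04 ± 0.24 (log2, SE; adjusted p = 0.927). Gamma-actin (Actg1) ran from 168 to 212 FPKM over the 9 libraries, with a log2 difference of 0.06 ± 0.11 (adjusted p = 0.686); with quantile normalization it was called higher (0.32, adjusted p = 0.0173). Smooth muscle actin (Acta2) had 1 read in control 1 and none elsewhere. Actb made up 77.5% ± 2.37 (SD, n = 3) of the summed actin FPKM in control, against 75.6% ± 3.61 for Taz KO and 77.2% ± 3.45 for double KO.

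Nonmuscle myosin II consists of heavy chains (Myh9, Myh10), essential light chains (Myl6) and regulatory light chains (Myl9, Myl12a, Myl12b) that are phosphorylated to start contraction. Myl12b (chr17:70973133-70990890) was at 77.2, 73.4 and 74.8 FPKM in control, 79.1, 69.5 and 79.8 FPKM in Taz KO and 64.3, 57.5 and 64.8 FPKM in double KO libraries. The double KO values were the 3 lowest, and control and Taz KO overlapped. It fell by 0.27 on the log2 scale against control (SE 0.08, adjusted p = 0.0412). This call held in 1 of 9 fits that left out 1 library, that without Taz KO 2, and reached 0.136 without control 1; with quantile normalization it was 0.151. Against Taz KO its adjusted p of 0.05 just missed the threshold, and was 0.00283 with the block. Myl12a is a near-identical copy of Myl12b, and reads may have been divided between them. Myl12a ran from 37.8 to 43.4 FPKM in control and from 28.7 to 36.2 FPKM in double KO, and Myl6 from 179 to 230 and from 138 to 176 FPKM. Neither passed (adjusted p = 0.162 and 0.163), while both did with the block (0.0075 and 0.0032). The heavy chain Myh9 differed between double KO and control by 0.10 ± 0.08 (log2). Myh10, with 7.87% ± 0.538 (SD, n = 3) of the heavy chain sum in control, was at 4.23, 4.69 and 4.50 FPKM in control and 5.17, 6.02 and 5.90 FPKM in Taz KO libraries. These groups did not overlap (adjusted p = 0.154, and 0.0125 with the block).

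Tropomyosins coat the filament, and calponins, caldesmon and transgelins bind it and modulate its contraction. Calponin 3 (Cnn3, chr3:121426497-121458207) dominated its family, with 96.4% ± 0.658 (SD, n = 3) of the summed calponin FPKM in control. Cnn3 was at 240, 262 and 232 FPKM in control, 204, 228 and 205 FPKM in Taz KO and 154, 185 and 143 FPKM in double KO libraries. The 3 groups were separate and stepped down from control to Taz KO to double KO. Cnn3 fell by 0.61 between control and double KO (log2; SE 0.11, adjusted p = 0.00462), a call that held in all 9 fits that left out 1 library but not with quantile normalization (-0.39, adjusted p = 0.138). It fell by 0.41 between Taz KO and double KO (adjusted p = 0.0387), held there only without control 2 or double KO 2, and was at 0.127 without double KO 3 and at 0.499 with quantile normalization. The step from control to Taz KO, -0.20, did not pass (adjusted p = 0.514), but did with the block (0.0482).

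Caldesmon (Cald1, chr6:34598500-34775473) was scarce, at 2.62, 3.57 and 2.14 FPKM in control, 2.03, 2.27 and 1.65 FPKM in Taz KO and 4.15, 3.96 and 4.22 FPKM in double KO libraries. All double KO libraries lay above all others, while control and Taz KO overlapped. Cald1 rose by 0.90 (log2; SE 0.16) against Taz KO (adjusted p = 0.0105), in all 9 fits that left out 1 library. Against control the rise was 0.52 (adjusted p = 0.0472), held in 3 of 9 such fits, those without control 2, Taz KO 2 or Taz KO 3, and reached 0.14 without control 3. Among the other genes of this group, transgelin 2 (Tagln2) was the highest, at 56.6 to 74.7 FPKM in control, 66.0 to 94.2 in Taz KO and 68.3 to 99.6 in double KO. The groups overlapped (adjusted p = 0.211 for double KO, and 0.00131 with the block). Tpm3 and Tpm4 together made up most of the tropomyosin level, with 47.8% ± 1.69 and 41.2% ± 1.28 of its sum in control. Tpm1, Tpm2, Tpm3, Tpm4 and Cnn2 passed in no comparison. With the block, Tpm2, Tpm3 and Cnn2 were lower in double KO than in control (adjusted p = 0.017, 0.0371 and 0.0135) and Tpm4 higher in Taz KO than in control (0.0351). Cnn1 and Tagln, known as smooth muscle genes, stayed at 1 to 5 and 13 to 35 reads per library.

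Crosslinkers join filaments into networks (filamin) and bundles (alpha-actinin). Of the 3 genes, Flna and Actn4 fell in double KO and Actn1 differed by 0.00 ± 0.08 (log2). Flna (chrX:74223461-74249820) was at 44.8, 43.4 and 47.7 FPKM in control, 46.9, 36.1 and 50.3 FPKM in Taz KO and 33.8, 31.3 and 37.1 FPKM in double KO libraries. The double KO libraries lay below all control libraries and overlapped with the lowest Taz KO library, number 2. It fell by 0.41 (log2; SE 0.13, adjusted p = 0.0425), a call that held only without Taz KO 2 or Taz KO 3 and reached 0.123 without control 3. Against Taz KO its adjusted p was 0.0839, and 0.00523 with the block. Actn4 (chr7:28893248-28962340) was at 90.7, 89.5 and 85.9 FPKM in control, 85.2, 76.5 and 81.0 FPKM in Taz KO and 72.2, 63.9 and 71.0 FPKM in double KO libraries, 3 groups that did not overlap. It fell by 0.36 against control (log2; SE 0.08, adjusted p = 0.0106). Without control 1 its adjusted p was 0.0509, and with quantile normalization 0.0801. Against Taz KO it was 0.0825, and 0.00995 with the block.

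Because Actn1 and Actn4 are close relatives measured in the same library, the share of Actn4 in their summed FPKM does not depend on scaling between libraries. That share was 49.0%, 49.5% and 49.4% in control, 47.1%, 46.7% and 46.3% in Taz KO and 43.1%, 43.5% and 42.3% in double KO libraries. It stepped down from control to Taz KO to double KO, with SDs of 0.298, 0.428 and 0.599 percentage points (n = 3) and no overlap between groups. The stretches before a RefSeq start of Flna (chrX:74246556-74246714, minus) and of Actn4 (chr7:28962341-28962582, minus) are shown because both crosslinkers that fell hold a GGAATG. It is here read as CATTCC from the other strand, and Actn4 also holds a TGANTCA (both in capitals). The Flna start used lies inside the gene as placed above, so this stretch is not upstream of the whole gene.
Flna: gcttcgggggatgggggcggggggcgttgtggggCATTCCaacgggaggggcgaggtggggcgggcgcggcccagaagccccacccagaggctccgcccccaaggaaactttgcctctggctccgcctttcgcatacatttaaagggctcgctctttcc
Actn4: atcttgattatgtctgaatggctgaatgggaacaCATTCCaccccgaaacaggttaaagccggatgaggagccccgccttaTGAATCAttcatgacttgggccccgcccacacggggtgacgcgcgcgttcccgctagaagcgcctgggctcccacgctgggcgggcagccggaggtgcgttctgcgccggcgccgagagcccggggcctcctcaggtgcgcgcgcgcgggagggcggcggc
GGAATG was also in windows of Cald1, Itgb1 and Vcl, which rose in double KO against control. It was in windows of Pfn1, Tpm1, Arpc2, Myh10, Myl12a and Tagln2 too, which passed in no comparison, and of Acta2, which was low. With the block, Pfn1, Arpc2 and Myl12a were lower and Tagln2 higher in double KO than in control.

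**Figure D2:**
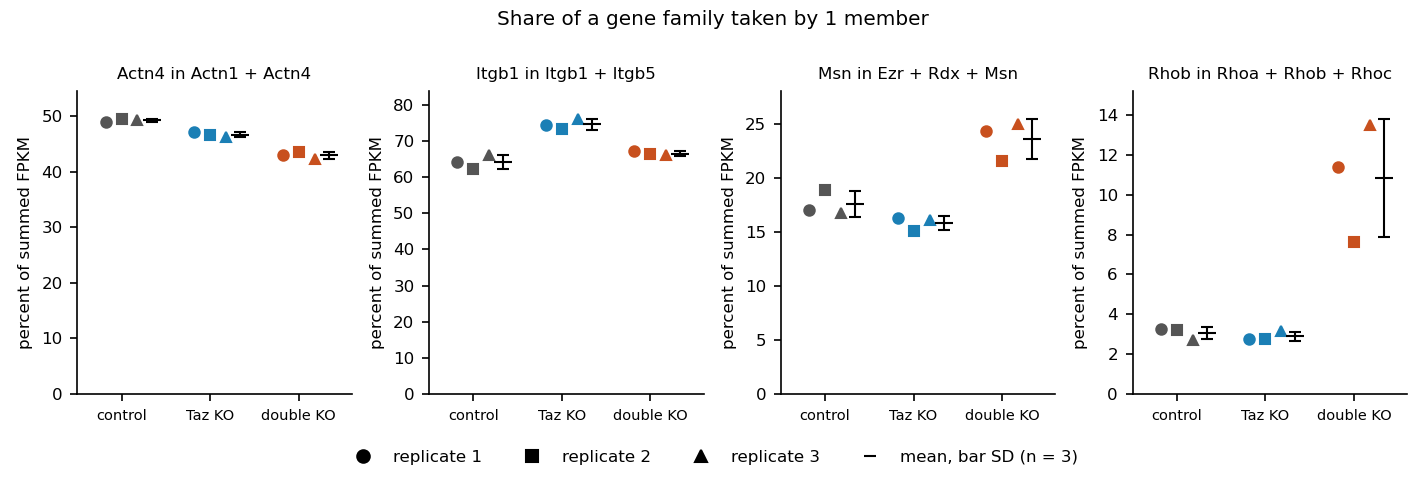
Share of 1 gene in the summed FPKM of its family (percent, y axes from 0) in each library, by group; symbols mark the replicate number, and the line and bar are the mean and SD (n = 3). Actn4 steps down from 49.3% to 46.7% to 43.0%, Itgb1 is highest in Taz KO at 74.6%, and Msn and Rhob are highest in double KO at 23.6% and 10.8%.

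Integrins are pairs of an alpha and a beta chain. Itgb1 pairs with most alpha chains, and among its partners here Itga5 makes the classical fibronectin receptor and Itga3 and Itga6 laminin receptors. Itgb1 (chr8:128685654-128733200) was the highest integrin and was higher in both KO groups than in control. It was at 40, 37.6 and 47.7 FPKM in control, 62.5, 57.6 and 69.0 FPKM in Taz KO and 54.7, 50.1 and 58.4 FPKM in double KO libraries. Every KO library lay above every control library, and the KO groups overlapped each other. Itgb1 rose by 0.59 in Taz KO (log2; SE 0.11, adjusted p = 0.0434), a call that held only without control 3 or double KO 2 and reached 0.201 without control 1. It rose by 0.38 in double KO (adjusted p = 0.0358), held in 4 of 9 such fits, lost without control 1, control 2, Taz KO 1, double KO 1 or double KO 3, and was at 0.12 without control 1. Between the KO groups it was at -0.21 in double KO (adjusted p = 0.243), lower with the block (0.0096).

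Itgb5 (chr16:33829665-33949338), which pairs with Itgav, had its lowest values in Taz KO. It was at 22.4, 22.6 and 24.4 FPKM in control, 21.4, 21 and 21.5 FPKM in Taz KO and 26.6, 25.5 and 30.1 FPKM in double KO libraries, 3 groups that did not overlap. Itgb5 rose by 0.35 in double KO against Taz KO (log2; SE 0.08, adjusted p = 0.0222), lost without Taz KO 1, Taz KO 3, double KO 1 or double KO 3, with 0.0833 without Taz KO 1. Against control it was 0.24 higher (adjusted p = 0.0559, and 0.00715 with the block). The Taz KO value was 0.11 below control and did not pass (adjusted p = 0.684). Itgb1 accounted for 64.3% ± 1.87 (SD, n = 3) of the sum of both beta chains in control, against 74.6% ± 1.5 for Taz KO and 66.5% ± 0.707 for double KO. This share was highest in the Taz KO libraries, which did not overlap with the others.

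None of the alpha chains passed in any comparison. Itga6 was the highest of the 4, with 50.6% ± 2.22 of their summed FPKM in control, and ran from 20.4 to 26.3 FPKM over the 9 libraries. Itga3 had the lowest estimate of all genes here, at 4.08, 5.53 and 2.98 FPKM in control and 2.1, 3.82 and 1.81 FPKM in double KO libraries. Each double KO library lay below the control library of the same number, although the groups overlapped (log2 change -0.63 ± 0.30, adjusted p = 0.149, and 0.000592 with the block). The stretch upstream of Itgb1 (chr8:128685534-128685653, plus) is shown because Itgb1 alone was called in Taz KO. It holds a GGAATG (capitals) close to the start.
Itgb1: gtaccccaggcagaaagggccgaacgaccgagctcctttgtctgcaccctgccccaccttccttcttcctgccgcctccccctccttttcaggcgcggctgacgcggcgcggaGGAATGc
Fibronectin (Fn1), the main ligand of the Itga5 and Itgb1 pair, was at 305, 383 and 267 FPKM in control, 291, 472 and 266 FPKM in Taz KO and 330, 455 and 297 FPKM in double KO libraries. The library numbered 2 was the highest in each group, and the groups overlapped (0.17 ± 0.24 in double KO, adjusted p = 0.636). Thrombospondin 1 (Thbs1), widely used as a Yap/Taz target, had at most 11 reads in a library and none in the 3 Taz KO libraries.

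In the adhesion plaque, vinculin (Vcl) reinforces the bond between talin and actin, and zyxin (Zyx) is recruited to adhesions under tension. Both rose in double KO, and the other 4 genes tested passed in no comparison. Vcl (chr14:20929398-21033676) was at 8.43, 8.88 and 8.85 FPKM in control, 11.2, 9.99 and 11.6 FPKM in Taz KO and 10.9, 10.5 and 11.2 FPKM in double KO libraries. Both KO groups lay above control and overlapped each other. Vcl rose by 0.30 in double KO (log2; SE 0.07, adjusted p = 0.0187), lost without control 1 (0.0788), double KO 1 or double KO 3. In Taz KO it was 0.31 higher (adjusted p = 0.0892, and 0.0151 with the block). Of the exon bases of Vcl, 25.5% overlap with Ap3m1 on the other strand, and whether reads were counted by strand is not given. Zyx (chr6:42349630-42360213) was at 1.67, 2.51 and 2.05 FPKM in control, 2.52, 3.53 and 2.74 FPKM in Taz KO and 2.82, 6.34 and 4.24 FPKM in double KO libraries. Control was the lowest group throughout, and the spread within double KO was wide, with number 2 the highest. Zyx rose by 0.90 in double KO (SE 0.25, adjusted p = 0.0306), lost without control 1 (0.111), control 3, double KO 2 or double KO 3. Against Taz KO it was 0.48 higher (adjusted p = 0.231, and 0.0162 with the block).

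Vasp, which promotes filament growth, was the highest plaque gene, at 65.4 to 66.6 FPKM in control, 57.1 to 63.2 in Taz KO and 55.5 to 64.1 in double KO. Both KO groups lay below control without passing (adjusted p = 0.564 and 0.151, and 0.0272 with the block for double KO). Talin 1 (Tln1), which activates integrins, paxillin (Pxn), an adaptor, and focal adhesion kinase (Ptk2) ran from 15.5 to 20.5, 5.74 to 9.23 and 13.9 to 20.2 FPKM. Of these, Ptk2 was lower in double KO with the block (adjusted p = 0.0198). Integrin-linked kinase (Ilk) and its partner parvin alpha (Parva) were low, at 0.274 to 0.516 and 0.182 to 0.471 FPKM. For Ilk, 89.7% of exon bases are shared with genes on the other strand, 76.7% with Taf10, which was at 13.3 FPKM, so its level is uncertain.

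Of the 6 genes that rose in double KO against control, 4 lie on chromosomes 6 (Cald1, Zyx), 8 (Itgb1) and 14 (Vcl). On these chromosomes 27.8%, 36.6% and 18.4% of all genes tested were called higher in that comparison, against 12.4% over the genome. For Itgb1 in Taz KO, the shares called higher were 7.91% on chromosome 8 and 0.72% over the genome. What part this played for these 4 genes was not tested. Outside chromosomes 6, 8, 14 and Y, 39 of the genes were tested. In double KO 2 were higher (Rhob, Msn) and 5 lower than in control, or 17.9% against 23.9% of all genes there. With quantile normalization the split of the 39 was 6 higher and 1 lower, so its direction depended on the scaling. None of the 39 was called in Taz KO by limma without the block or by voom, where limma without the block called 0.794% of all genes there. At an unadjusted p of 0.05, 1 of the 39 passed, where 12.8% of all genes over the genome did. With the block 3 were called, Tagln2, Myh10 and Cnn3 (7.69%, against 11.8% of all genes over the genome). Both genome shares include chromosomes 6, 8 and 14, where the block called 32.4%, 65.2% and 13.1% of genes in Taz KO. They are therefore no background for the 39 genes, and the shares outside these chromosomes were not computed.

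Cofilin (Cfl1) severs filaments, profilin (Pfn1) loads monomers onto growing ends, the formin Diap1 elongates filaments and Arpc2 belongs to the Arp2/3 complex that branches them. None of these passed in any comparison. Cfl1 was at 552, 406 and 558 FPKM in control and 494, 298 and 467 FPKM in double KO libraries, and Pfn1 at 203, 157 and 198 and at 162, 110 and 159 FPKM. Within each number the double KO library was the lower for both genes, but the spread within groups was larger. With the block, Cfl1, Pfn1 and Arpc2 were lower (adjusted p = 0.0125, 0.00154 and 0.0263) and Diap1 was higher (0.036) in double KO than in control.

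Ezrin (Ezr), radixin (Rdx) and moesin (Msn) are close relatives that link actin to the plasma membrane. Msn (chrX:96096042-96168552) was at 32.7, 35.9 and 33.6 FPKM in control, 32.7, 31.5 and 32.5 FPKM in Taz KO and 48.4, 41.1 and 51.1 FPKM in double KO libraries. Every double KO library lay above all others, and number 2 was the lowest of the 3. Msn rose by 0.45 against control (log2; SE 0.09, adjusted p = 0.008) and by 0.53 against Taz KO (adjusted p = 0.0084), with both calls held in all 9 fits that left out 1 library. Ezr, the highest of the family, was at 108, 107 and 110 FPKM in control, 108, 124 and 108 FPKM in Taz KO and 94.1, 102 and 96.4 FPKM in double KO libraries. The double KO libraries were the lowest, without passing against control (adjusted p = 0.173, and 0.0462 with the block) or Taz KO (0.0912, and 0.0141 with the block). The sum of all 3 was 194 ± 5.82 FPKM (SD, n = 3) in control, against 204 ± 4.24 for Taz KO and 198 ± 6.71 for double KO. Within that sum the share of Msn was 17.6% ± 1.19, 15.8% ± 0.629 and 23.6% ± 1.84, with every double KO library above every other.

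RhoA, RhoB and RhoC are closely related GTPases that promote contraction, while Cdc42 and Rac1 drive protrusion. RhoB differs from RhoA in that it is found on endosomes and its RNA and protein turn over fast. Rhob (chr12:8497661-8500009) was at 7.04, 6.58 and 5.65 FPKM in control, 6.16, 5.57 and 6.51 FPKM in Taz KO and 22.2, 14.3 and 24.9 FPKM in double KO libraries. Control and Taz KO overlapped, and the lowest double KO library, number 2, was still above every other library. Rhob rose by 1.57 (log2; SE 0.18, adjusted p = 0.000812), a 2.96-fold rise against control, and by 1.64 (adjusted p = 0.00172), or 3.11-fold, against Taz KO. Both calls held in all 9 fits that left out 1 library. Rhoa (chr9:108306129-108337934) was at 196, 182 and 191 FPKM in control, 201, 174 and 185 FPKM in Taz KO and 157, 145 and 145 FPKM in double KO libraries. The 3 lowest values were those of double KO, while control and Taz KO overlapped. Rhoa fell by 0.35 against control (SE 0.08, adjusted p = 0.0135), lost without control 1 (0.0623) or double KO 3, and with quantile normalization (-0.13, adjusted p = 0.197). It fell by 0.33 against Taz KO (adjusted p = 0.0292), held only without control 2, control 3 or Taz KO 2, and reached 0.119 without Taz KO 1.

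Rhoa remained the most abundant of Rhoa, Rhob and Rhoc in every library. Its share of their sum was 90.1% ± 1.25 (SD, n = 3) in control, against 89.0% ± 2.32 for Taz KO and 78.6% ± 1.57 for double KO. The share of Rhob was 3.05% ± 0.296, 2.90% ± 0.225 and 10.8% ± 2.96. The sum of the 3 genes was 211 ± 6.19 FPKM in control and 189 ± 5.68 FPKM in double KO, since the Rhoa level is far above that of Rhob. Rhoc ran from 12.5 to 16.4 FPKM in control and from 14.6 to 28.7 FPKM in double KO, with number 2 the highest in each group (adjusted p = 0.291, and 0.0221 with the block). Cdc42 and Rac1 lay lower in every double KO than in every control library without passing (adjusted p = 0.0892 and 0.197, and 0.00839 and 0.00708 with the block). Of the exon bases of Rac1, 51.4% overlap with Daglb on the other strand. The stretches upstream of Rhob (chr12:8500010-8500209, minus) and Msn (chrX:96095895-96096041, plus) are shown because of their rises. These held against both control and Taz KO in all 9 fits that left out 1 library. The rise of Cald1 held so against Taz KO only, and Cald1 has a window with GGAATG and another with TGANTCA. Neither the Rhob nor the Msn stretch holds any of the 3 motifs, so there are no capitals.
Rhob: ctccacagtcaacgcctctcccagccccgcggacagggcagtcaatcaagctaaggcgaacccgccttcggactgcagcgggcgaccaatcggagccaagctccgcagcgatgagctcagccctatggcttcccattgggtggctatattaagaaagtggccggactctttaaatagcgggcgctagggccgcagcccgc
Msn: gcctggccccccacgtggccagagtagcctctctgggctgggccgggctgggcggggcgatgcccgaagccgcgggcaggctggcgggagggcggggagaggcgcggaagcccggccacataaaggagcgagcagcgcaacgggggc
That says only that these letters are not in these windows.

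**Figure D3:**
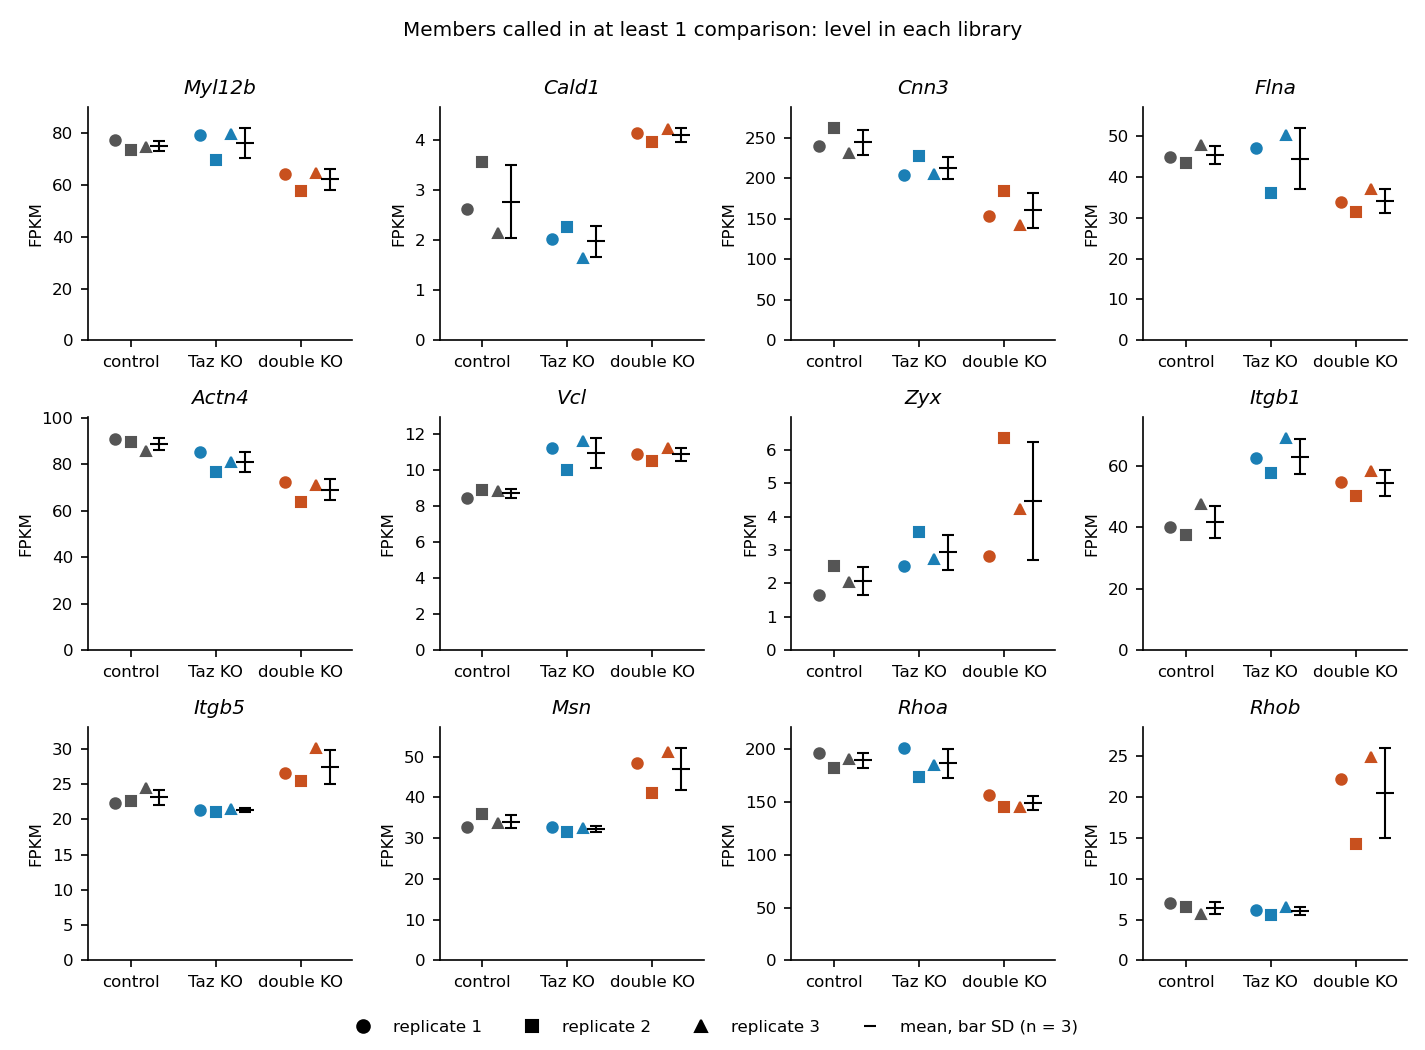
FPKM of the 12 genes called in at least 1 comparison, in each of the 9 libraries (y axes from 0); symbols mark the replicate number, and the line and bar are the mean and SD (n = 3). The double KO libraries of Rhob, at 14.3 to 24.9, and Msn, at 41.1 to 51.1, lie above all others, Cnn3 and Actn4 step down over the 3 groups, and Itgb1 is highest in Taz KO.

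Srf was at 9.08, 8.71 and 8.93 FPKM in control, 8.73, 7.22 and 9.28 FPKM in Taz KO and 8.62, 8.39 and 8.27 FPKM in double KO libraries. The double KO libraries lay just under control, and the difference of -0.08 ± 0.09 (log2) did not pass (adjusted p = 0.571). Among the genes with a CArG box in the window, Vcl rose, Actg1, Cnn2, Myl6 and Srf did not pass, and Myl9 had at most 4 reads in a library. With the block, Cnn2 and Myl6 were lower in double KO than in control (adjusted p = 0.0135 and 0.0032). With quantile normalization Actg1 was higher (0.0173).

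The libraries numbered 2 differed from numbers 1 and 3 in a way that recurred in all 3 groups for many of these genes. Number 2 was the lowest library of its group in all 3 groups for 16 of the 44 genes (36.4%, against 31.8% of all genes tested) and the highest for 12 (27.3%, against 19.6%). On the log2 scale, Actb in number 2 lay below the mean of numbers 1 and 3 by 0.52 for control, 0.80 for Taz KO and 0.38 for double KO. Cfl1 lay below by 0.45, 0.78 and 0.69, while Itga3 lay above by 0.60, 0.65 and 0.82 and Cnn2 by 0.56, 0.51 and 0.95. These shifts are as large as or larger than most group differences of the same genes. Rhob behaved differently, with shifts of 0.06, -0.17 and -0.69, large only in double KO. The log2 rise of Rhob without the libraries numbered 2 was 1.82 (adjusted p = 0.000408). What set the libraries numbered 2 apart was not tested.

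**Figure D4:**
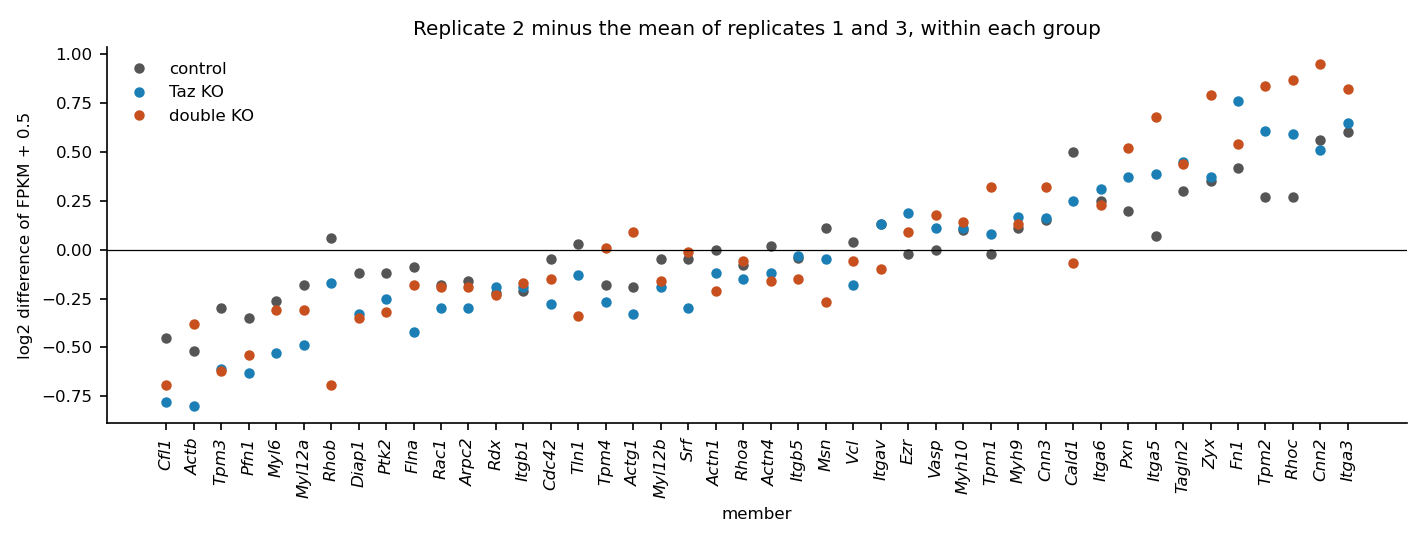
Log2 FPKM + 0.5 of replicate 2 minus the mean of replicates 1 and 3 in each group, for the 44 genes tested in order of their average over the groups; each point is 1 group. Genes at the left, such as Cfl1 and Actb, were low in number 2 in all 3 groups, and genes at the right, such as Itga3 and Cnn2, high.

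A further 197 genes of the same pathway were listed, of which 190 were found and 146 tested. In double KO against control, 21 rose and 20 fell, 28.1% against 25.3% of all genes (30 and 24 with quantile normalization). In Taz KO against control 1 fell, 0.685% against 1.28%, and in double KO against Taz KO 11 rose and 8 fell, 13% against 13.9% (18 and 8 with quantile normalization). With the replicate block these became 44 and 40 (57.5% against 52.4%), 11 and 7 (12.3% against 11.8%), and 35 and 33 (46.6% against 42.4%). The group with most falls was that of other matrix ligands, 7 of 10 tested against 1 that rose, where 12.9% of all genes fell. Osteopontin (Spp1), a ligand of integrins, went from 418 ± 34.9 FPKM in control to 314 ± 34.2 in Taz KO and 183 ± 55.0 in double KO (SD, n = 3; double KO against control: log2 change -1.23, adjusted p = 0.00261). Laminin beta 1 (Lamb1) fell by 1.08 in double KO (adjusted p = 0.000339) and by 0.61 in Taz KO (0.0287), the second held only without control 3, double KO 2 or double KO 3 and at 0.133 without Taz KO 3. Perlecan (Hspg2) fell by 0.85 (adjusted p = 0.00491).

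Of the 3 other integrins tested, Itgb7, a beta chain best known from lymphocytes, rose from 9.14 ± 1.34 FPKM in control to 24.5 ± 2.05 in double KO, with 14.8 ± 2.02 in Taz KO (log2 change 1.38, adjusted p = 0.000332). It also rose between Taz KO and double KO (0.72, adjusted p = 0.0108), and in Taz KO against control with the block (0.66, adjusted p = 0.0162). Among 28 other plaque genes 5 rose and 1 fell, and the rises included the LIM protein Pdlim7 (0.82) and the Src-inhibiting kinase Csk (0.55). Among 10 other crosslinkers 4 rose and none fell, with plastin 1 (Pls1, 0.71), plectin (Plec, 0.51) and spectrin (Sptbn1, 0.30) named first by size. Of these, Plec was lost without control 3 (adjusted p = 0.0591), and Sptbn1 without control 1 (0.0747), control 3, double KO 1 or double KO 3.

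Among 25 other nucleation genes 1 rose and 4 fell, with Enah, a relative of Vasp, at -0.48, the formin Fmnl2 at -0.46 and Evl at -0.35. All 3 were lost without control 1 or control 3, with adjusted p up to 0.0683, 0.116 and 0.135. Fmnl2 held only without Taz KO 2, Taz KO 3 or double KO 3, and Evl only without Taz KO 1 or Taz KO 2. Of 20 other turnover genes 2 rose and 2 fell. The severing protein gelsolin (Gsn) rose by 2.01 (adjusted p = 0.0393), from 2.59 ± 1.45 to 11.9 ± 5.97 FPKM, a call lost without control 1, control 3 (0.125) or any 1 double KO library. The capping protein Capzb (-0.36) and the monomer binder Twf1 (-0.35) held in 4 of 9 such fits each, with 0.0937 without control 1 and 0.104 without control 3. Capzb was also lost without control 2, control 3, double KO 2 or double KO 3, and Twf1 without control 2, Taz KO 1, double KO 1 or double KO 2.

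Among 12 other myosins and regulators, Myo1c fell by 0.97 (adjusted p = 0.00347). Of 25 other small GTPases and their regulators 4 rose and 2 fell. The atypical GTPase Rhou, on chromosome 8, rose from 5.70 ± 0.612 to 14.5 ± 4.90 FPKM (log2 1.23, adjusted p = 0.00807), the exchange factor Ect2 fell by 0.48 (0.00882), and the kinase Pak2 rose by 0.35 (0.0105). Of 6 SRF partners, Mkl2 rose by 0.48 (adjusted p = 0.0125), lost without control 1 (0.057). Mkl1 rose by 0.25 (0.0474), which held only without Taz KO 2 or Taz KO 3, reached 0.133 without control 3 and was 0.113 with quantile normalization. Fhl1 fell by 0.63 (0.0468), held only without Taz KO 2, Taz KO 3 or double KO 3 and reached 0.133 without control 2. The membrane scaffolds that bind ezrin, radixin and moesin both fell, Slc9a3r2 by 1.46 (adjusted p = 0.00827) and Slc9a3r1 by 0.44 (0.0406, held only without Taz KO 1 or Taz KO 2 and at 0.129 without control 1), among 7 partners tested.

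Between double KO and Taz KO the matrix ligands again had falls and no rise, 4 of 10, where 7.45% of all genes fell. The basement membrane protein Nid2 fell from 83.8 ± 2.61 to 56.4 ± 5.37 FPKM (log2 change -0.57, adjusted p = 0.00482). Rhog, a Rac-related GTPase, rose by 0.42 (adjusted p = 0.0107). Pdlim7, Csk, Myo10, Rnd3 and Coro1b also rose, and Spp1, Lamb1, Myo1c, Ect2, Actr3 and Slc9a3r2 fell, all lost without Taz KO 1 (adjusted p up to 0.141) except Csk, lost without Taz KO 3, double KO 1 or double KO 3 (up to 0.0651). No other crosslinker or SRF partner was called by limma without the block or by voom, while 5 and 3 passed at an unadjusted p of 0.05 (30.4% of all genes did). With the block 7 of 10 other crosslinkers (70%, 6 higher and 1 lower) and 2 of 6 SRF partners (33.3%) were called. Of all genes, 42.4% were called with the block, 16.8% higher and 25.6% lower. With quantile normalization 2 other crosslinkers were called higher, where 7.4% of all genes were.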

How the data were processed

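RNA sequencing libraries were made from poly(A) RNA with a directional kit, per the labels' protocols. The authors deposited 1 table of FPKM values per gene name for 9 libraries. TopHat2 2.1.1, HTSeq 0.6.1, DESeq2 and mm10 appear in the submitters' processing notes, without their roles. The annotation, strand setting and filters were left unstated: not given in the sources used here. FPKM steps gave whole reads for all 24621 genes above 0 (tolerance 0.001), totalling 19139802 to 23992020 reads per library. The steps matched median-of-ratios size factors, so columns were already scaled.

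The members, their roles and the pathway lists were chosen with earlier results of these data known. limma 3.58.1 (R 4.3.3; trended empirical Bayes, 6 residual degrees of freedom) was fitted to log2(FPKM + 0.5) over the 11674 genes that averaged 1 FPKM or more, in 1 model of all 9 libraries without a block. It was tested on simulated data whose libraries varied independently, so that test does not cover the deviations shared by same-numbered libraries here. Fold changes on this scale understate those of low genes. Adjusted p-values are Benjamini-Hochberg over all genes tested in a comparison, with a threshold of 0.05. All called members were named, with the highest uncalled ones of each role, and at most 3 called genes per pathway list by size of change; others were named after their values were seen. Some items that this rule would name are not reported here. Deviations from group means correlated at 0.192 to 0.711 in the 9 same-numbered pairs and at -0.688 to 0.394 in the 18 others, so replicate numbers, which come from the titles, were taken to pair the libraries. Positions are from GENCODE M21 (GRCm38).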

Additional observations from a re-analysis of the deposited data

How the results depend on the processing

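Changing the pseudocount to 0.1 or 1, raising the minimum to 5 FPKM or using voom on recovered reads left the counts of calls within 1.5 times. In double KO against control, 11 of these genes and 2948 of all genes were called. The replicate block gave 29 and 6112, omitting the libraries numbered 2 gave 24 and 4889, no filter on low values gave 6 of these genes, and leaving out chromosomes 6, 8, 14 and Y gave 7, which also removes genes from the list. Leaving out 1 library gave 3 to 12 and 1505 to 3568. In Taz KO against control, 1 and 150 were called. The block gave 6 and 1381, omitting the libraries numbered 2 gave 2 and 423, fitting only the 6 libraries compared gave 0 and 88, leaving out those chromosomes gave 0 and 63, and no filter gave 0 of these genes. Leaving out 1 library gave 0 to 1 and 11 to 230. Between double KO and Taz KO, 6 and 1620 were called. The block gave 18 and 4947, omitting the libraries numbered 2 gave 18 and 4277, and fitting only the 6 libraries gave 3 and 635. Leaving out 1 library gave 3 to 9 and 482 to 2648. No called gene changed sign under any of these settings; the cause of these shifts was not tested. Among the 51 genes the block lost no call and added those given; among the other pathway genes it lost none of the main calls and raised their number from 41 to 84, from 1 to 18 and from 19 to 68 in the same order of comparisons. Depth limits the 7 genes under 1 FPKM, whose libraries held at most 110 reads each.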
